A study of Homo sapiens with 6 samples.

Results

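The genes for the proteins of the mitochondrial ribosome were followed in KYSE150 cells, an established line of esophageal squamous cell carcinoma (ESCC). Members were the protein-coding genes of GENCODE release 44 whose symbol was MRPL or MRPS followed by a number and at most a letter. This gave 78 genes, 49 with an MRPL symbol (named for the large subunit) and 29 with an MRPS symbol (named for the small subunit), out of 67140 Ensembl gene identifiers in the deposited count table. In structures of the ribosome, MRPS18A and MRPS30 lie in the large subunit and MRPS36 in neither, which gives 51 and 26. All 78 passed the filter on low counts and were among the 19254 genes tested.

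Both groups were the same line grown in the same medium with serum. The 3 libraries of the first group carried the control hairpin shCtrl, and the 3 libraries of the second carried shAC007128.1, a short hairpin RNA against the long noncoding RNA AC007128.1. The labels name no separate cultures, so that p-values measure the spread between these libraries, which may be technical, and a single cell line and a single hairpin limit what the groups can stand for. The comparison asks which of the ribosomal protein genes differed in level when the cells carried the hairpin, and whether the large and the small subunit differed alike.

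Mitochondrial ribosomes translate the messenger RNAs of the mitochondrial genome, which code for core subunits of the respiratory chain and of ATP synthase. All of their proteins are encoded in the nucleus, made in the cytosol and imported. The large subunit forms peptide bonds and releases the growing chain through an exit tunnel at the inner membrane, and the small subunit holds and reads the messenger. Part of the proteins have a homologue in bacterial ribosomes and part were added in mitochondria.

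Library totals lay between 55764405 and 78610457 counts, and levels are given as CPM, the counts of a gene relative to a library total scaled by the trimmed mean of M values (TMM). A count of 3, taken as the floor of detection, was worth 0.0373 to 0.0546 CPM, and the lowest member value in any library was 1.24 CPM (MRPL53). The targeted AC007128.1 was counted 69, 33 and 53 times in shCtrl and 18, 37 and 15 times in shAC007128.1. Its groups overlapped, and the log2 fold change was -0.77 (SE 0.51, edgeR adjusted p = 0.271), so the target gene itself did not pass the test. With 1 library left out the value lay between -0.51 (without shCtrl replicate 1) and -1.29 (without shAC007128.1 replicate 2, edgeR adjusted p = 0.0959). The gene passed in none of these fits. With counts this low, these tests cannot decide whether AC007128.1 fell. The paper reports from qPCR that its hairpin reduced AC007128.1. The squamous markers KRT5, KRT14, KRT6A, KRT17, TP63, SFN, DSP, DSG3 and PERP had group means between 34.9 and 1070 CPM. Of these 9, 6 rose, led by KRT6A (2.46), KRT14 (2.28) and PERP (1.54), and DSG3 fell (-1.09), and the part of these changes in the results was not tested. Of the fibroblast markers, COL1A2, COL3A1 and DCN were at or below 0.219 CPM in every library. LUM rose from 1.07 ± 0.41 to 4.71 ± 0.72 CPM (SD, n = 3, edgeR adjusted p = 0.00193) and COL1A1 from 13.9 to 17.5 CPM (edgeR adjusted p = 0.0462), while PDGFRB fell from 0.47 to 0.15 CPM (edgeR adjusted p = 0.0474), and their part in the results was not tested. No blood cell marker passed 0.929 CPM.

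The third shAC007128.1 library stood apart from the other two. It was the lowest of its group for 47 of the 78 members and the highest for 23. Across the members, the median coefficient of variation was 5.65% among the shCtrl libraries, 12.6% among the 3 shAC007128.1 libraries and 6.05% between shAC007128.1 replicates 1 and 2. All 10057 genes tested with a mean of at least 10 CPM showed the same pattern, at 5.05%, 10.85% and 4.715%. Replicate 3 lay at least 0.5 log2 units below the mean of replicates 1 and 2 for 16 members and at least as far above it for 2. The members farthest below were MRPL53 (-1.77), MRPL24 (-1.19), MRPL51 (-1.13) and MRPL17 (-1.07), and MRPL34 was the farthest above (0.93). In the same library, the 13 protein genes of the mitochondrial genome summed to 92056 CPM, against 72647 and 70933 CPM in replicates 1 and 2 and 67105 to 72010 CPM in shCtrl. As a description across 78 genes of the same libraries, which are not independent replicates, the deviation of replicate 3 was correlated with the GC content of the canonical transcript (Pearson's r = -0.44, Spearman's rho = -0.54), and over 19156 tested genes the values were -0.295 and -0.431. The fold change between the groups had almost no such relation in the members (r = -0.042, rho = -0.049), while over the 19156 genes it was -0.178 and -0.195. The part of GC content in the results below was not tested beyond a correction for it, given for some genes below and in the closing section. The calls and summed levels of the members by symbol are also given without this library, and other results mostly with it only.

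**Figure D1:**
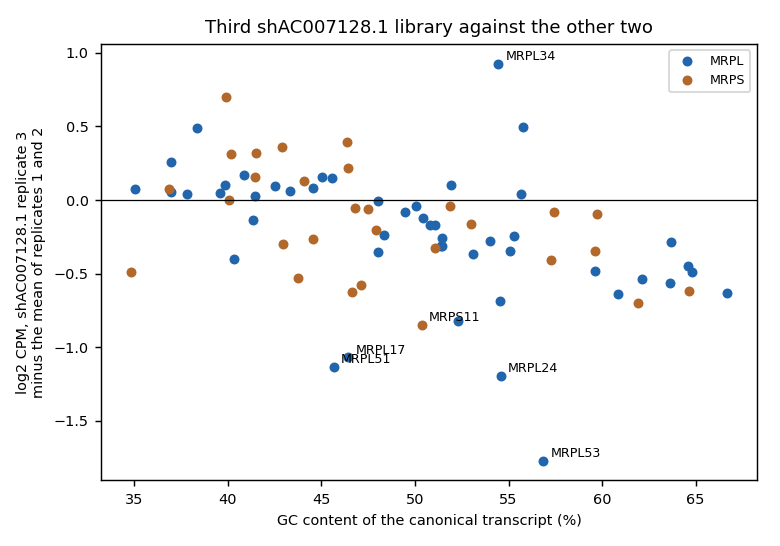
Deviation of the third shAC007128.1 library from the mean of the first 2 (log2 CPM, vertical axis) against the GC content of the canonical transcript (percent, horizontal axis), 1 point per member, MRPL in blue and MRPS in brown. Of 78 points, 51 lie below 0, and 16 lie at or below -0.5.

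More members were higher than lower in shAC007128.1. Of the 78, 25 rose and 4 fell at an adjusted p of at most 0.05, and 49 did not pass the test. The higher members were 32.1% of the list against 21.0% of all 19254 genes tested, and the lower ones were 5.13% against 19.8%. Among the 13591 protein-coding genes tested, 27.3% were higher and 20.9% were lower. The median log2 fold change of the members was 0.25 (quartiles 0.01 and 0.51) and the full range ran from -0.49 to 1.04, whereas all genes tested had a median of -0.02 and quartiles of -0.59 and 0.45. The fold change was above 0 for 59 members and below 0 for 19. The 3 libraries of each group did not overlap for 41 members, 35 of them higher (44.9%, against 27.0% of all genes tested) and 6 lower (7.69%, against 28.2%). Among the protein-coding genes tested, 33.3% were separated in this way as higher and 27.8% as lower. These counts describe the list, and no test of the list as a whole was made. In RNA of whole cultures, more RNA per cell and more cells with a high level cannot be told apart.

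Without shAC007128.1 replicate 3, 38 members (48.7%) passed as higher and 4 (5.13%) as lower, with a median of 0.33. In that fit 28.9% of protein-coding genes were higher and 22.4% lower, and 21.1% and 20.4% of all genes. Of the 25 higher members, 24 stayed so, and the 14 that joined them were MRPL12, MRPL14, MRPL18, MRPL24, MRPL27, MRPL38, MRPL41, MRPL49, MRPL51, MRPL52, MRPS12, MRPS25, MRPS34 and MRPS36. MRPS30 was the member that lost its call (log2 fold change 0.21, edgeR adjusted p = 0.06).

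The changes were small for single genes. With a fold change of at least 2 in addition, the study's own limit, 2 members were higher, MRPL23 and MRPS28, against 5.57% of all genes tested, and 0 were lower, against 10.1%. No member fell by 2-fold or more at any p-value, nor passed as such at an unadjusted p under 0.05, with DESeq2 or with limma-voom. MRPL37 (0.97) and MRPL11 (0.96) lay just outside the 2-fold limit, and MRPL23 (1.04) and MRPS28 (1.01) just inside it.

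**Figure D2:**
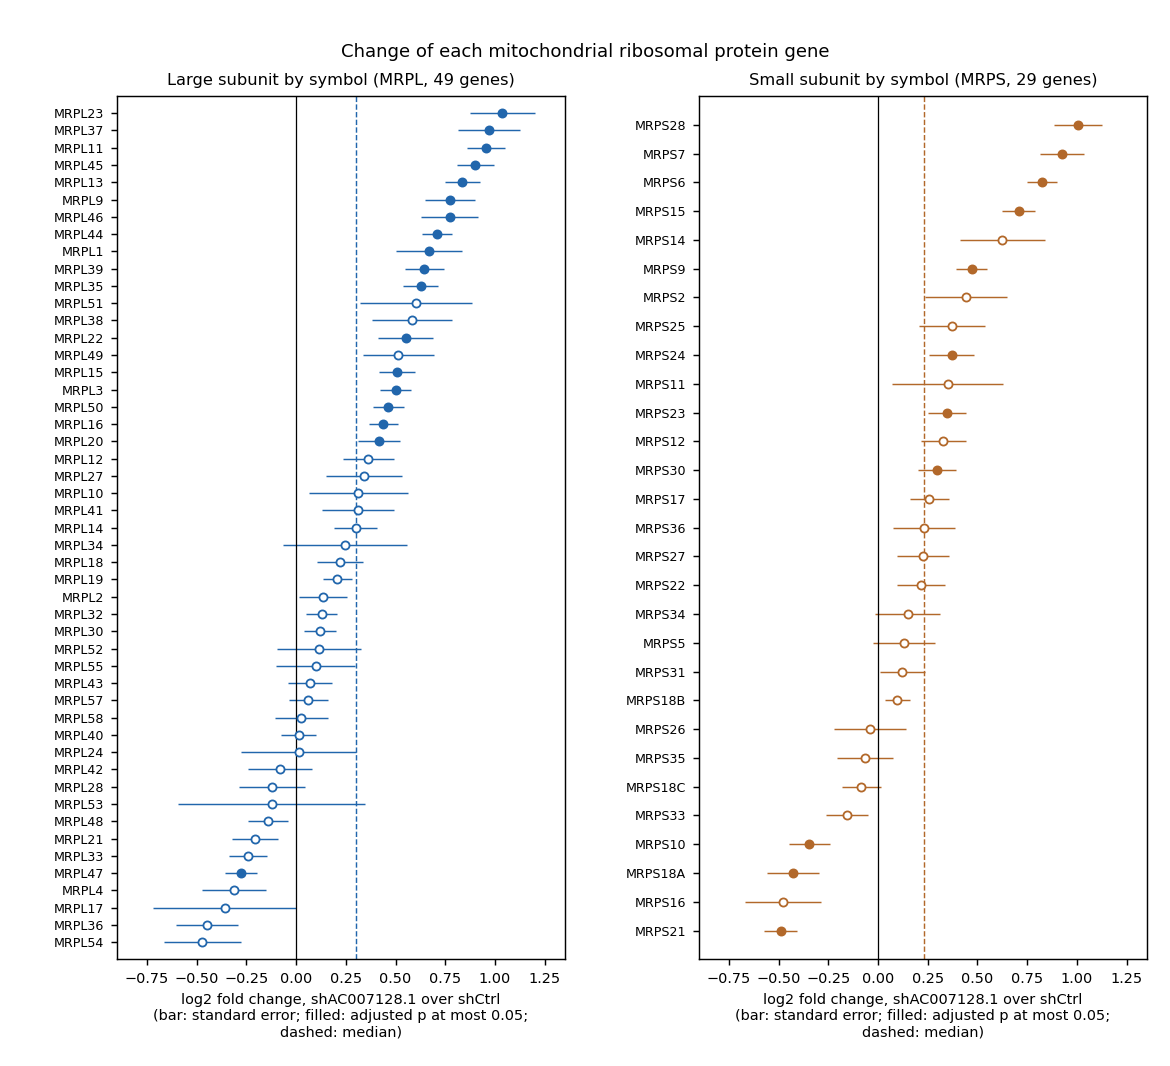
Log2 fold change of shAC007128.1 over shCtrl for each of the 49 MRPL and 29 MRPS genes, with the standard error as a bar. Filled points passed an adjusted p of 0.05, and the dashed lines mark the medians of 0.30 (MRPL) and 0.23 (MRPS).

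Genes with an MRPL symbol were higher in 17 of 49 cases (34.7%, against 21.0% of all genes and 27.3% of protein-coding genes tested), lower in 1 and not called in 31. Without shAC007128.1 replicate 3, 27 were higher (55.1%, against 28.9% of protein-coding genes tested then) and 1 was lower. MRPL23, the protein uL23 beside the exit tunnel (chr11:1947278-1984522, GRCh38), stood at 19.2, 24.2 and 24.2 CPM in shCtrl and at 52.1, 49.99 and 36.4 CPM in shAC007128.1. The groups did not overlap, although replicate 3 lay well below the other two, and the log2 fold change was 1.04 (SE 0.16, edgeR adjusted p = 0.00231). Without that library it was 1.17.

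MRPL37 (chr1:54184041-54225464), a subunit with no bacterial counterpart, stood at 73.0, 74.8 and 81.9 CPM in shCtrl and at 145, 120 and 186 CPM in shAC007128.1. Here replicate 3 was the highest library, the groups did not overlap, and the log2 fold change was 0.97 (SE 0.16, edgeR adjusted p = 0.00241), or 0.78 without that library.

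MRPL11 (chr11:66435075-66466738) is the protein uL11 at the base of the stalk where elongation factors bind. It was measured at 26.5, 24.1 and 24.9 CPM in shCtrl and at 53.0, 48.5 and 45.1 CPM in shAC007128.1. Each of the latter was far above each of the former (log2 fold change 0.96, SE 0.10, edgeR adjusted p = 0.000313).

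MRPL45 (chr17:38297023-38323217) sits at the tunnel exit and tethers the ribosome to the inner membrane. Its levels were 35.5, 38.5 and 35.6 CPM in shCtrl against 62.0, 69.5 and 73.25 CPM in shAC007128.1, with no overlap and with replicate 3 the highest (log2 fold change 0.90, SE 0.09, edgeR adjusted p = 0.000352). MRPL13, the protein uL13 (chr8:120380761-120445402), stood at 28.2, 26.8 and 30.3 CPM against 52.1, 48.3 and 51.9 CPM. The shAC007128.1 libraries agreed closely here, and the log2 fold change was 0.84 (SE 0.09, edgeR adjusted p = 0.000388).

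The other 12 higher MRPL genes ranged from MRPL9 and MRPL46 (both 0.77) through MRPL44 (0.71), MRPL1, MRPL39, MRPL35, MRPL22, MRPL15, MRPL3, MRPL50 and MRPL16 to MRPL20 (0.42). MRPL44, MRPL39, MRPL46 and MRPL50 have no bacterial homologue, and the rest of these 12 do. MRPL12 forms the L7/L12 stalk of the large subunit, which recruits translation factors, and was the highest MRPL gene per length. It stood at 138.36, 131 and 132 CPM in shCtrl and at 198, 181 and 138.47 CPM in shAC007128.1. Replicate 3 was practically equal to the highest shCtrl library, and the log2 fold change of 0.36 (SE 0.13) missed the threshold (edgeR adjusted p = 0.058), but it passed without replicate 3 (0.49, adjusted p = 0.00123) and with DESeq2 or a correction for GC content or length. MRPL58, a peptidyl-tRNA hydrolase built into the large subunit, had a log2 fold change of 0.03 (SE 0.13, edgeR adjusted p = 0.897).

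Genes with an MRPS symbol were higher in 8 of 29 cases, lower in 3 and not called in 18, and those by structure in the small subunit were higher in 7 of 26, lower in 2 and not called in 17. The 8 higher ones are 27.6%, close to the 27.3% of protein-coding genes tested, whereas the 3 lower ones are 10.3% against 20.9%. The share of higher ones depends on the third library: without it, 11 of 29 (37.9%, against 28.9%) were higher and 3 lower. MRPS28, the mitochondrial relative of bacterial S1 (chr8:79918717-80030289), stood at 12.8, 12.7 and 13.5 CPM in shCtrl and at 28.2, 27.5 and 22.6 CPM in shAC007128.1. The shCtrl libraries lay within 1 CPM of each other and the groups were far apart, with a log2 fold change of 1.01 (SE 0.12, edgeR adjusted p = 0.000625). Of its exon bases, 35.8% are shared with another annotated gene.

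MRPS7 (chr17:75261674-75266376), the protein uS7 in the head of the small subunit, was at 38.8, 37.8 and 35.9 CPM in shCtrl and at 75.2, 77.7 and 61.0 CPM in shAC007128.1. Replicate 3 was again the lowest of its group but above every shCtrl library (log2 fold change 0.93, SE 0.11, edgeR adjusted p = 0.000639). MRPS6 (chr21:34073224-34143034), the protein bS6 of the platform, was at 35.9, 35.2 and 35.7 CPM against 65.9, 61.8 and 61.2 CPM, with the smallest adjusted p of all members (log2 fold change 0.82, SE 0.08, edgeR adjusted p = 0.000219).

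MRPS15 (chr1:36455718-36464384), the protein uS15, was at 64.0, 64.4 and 62.25 CPM in shCtrl and at 112, 103 and 96.0 CPM in shAC007128.1, and its groups did not overlap (log2 fold change 0.71, SE 0.08, edgeR adjusted p = 0.00061). MRPS9 (chr2:105038069-105099960), the protein uS9, was at 52.1, 50.8 and 49.7 CPM against 68.7, 68.1 and 74.8 CPM, with replicate 3 on top (log2 fold change 0.47, SE 0.08, edgeR adjusted p = 0.00269). The remaining higher MRPS genes were MRPS24 (0.37), MRPS23 (0.35) and MRPS30 (0.30). MRPS24 lost its call in 7 of 18 alternatives and MRPS30 in 13 of 18, at adjusted p-values up to 0.126 and 0.243. MRPS23 kept its call in only 7 of 18.

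**Figure D3:**
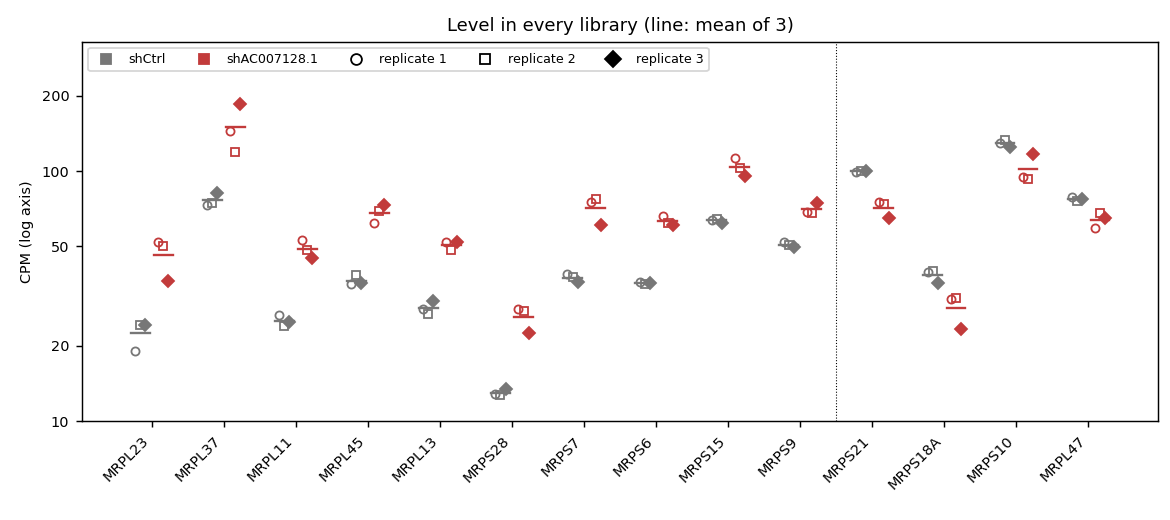
CPM on a log axis in every library for the 5 largest rises among called MRPL and among called MRPS genes (left of the dotted line) and the 4 that fell (right). Grey marks stand for shCtrl, red for shAC007128.1, circles, squares and filled diamonds for replicates 1, 2 and 3, and lines for means of 3, and the groups are apart for all 14 genes.

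The 4 members that fell did so by less than 1.5-fold. MRPS21 (chr1:150293861-150308979), the protein bS21, stood at 99.7, 100.1 and 100.1 CPM in shCtrl and at 75.1, 73.9 and 64.8 CPM in shAC007128.1. The shCtrl libraries were nearly equal and all lay above the other group (log2 fold change -0.49, SE 0.08, edgeR adjusted p = 0.00303). It was the only falling member that held its call in all 18 alternatives.

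MRPS18A (chr6:43671202-43687791) stood at 39.5, 39.8 and 35.7 CPM in shCtrl against 30.9, 31.2 and 23.4 CPM (log2 fold change -0.43, SE 0.13, edgeR adjusted p = 0.0342). Of its exon bases, 50.9% are shared with RSPH9, so that reads could be split between them. MRPS10 (chr6:42206807-42217861), the protein uS10, was at 129.7, 132.9 and 124.8 CPM against 94.9, 93.1 and 117.0 CPM, and replicate 3 lay closest to shCtrl (log2 fold change -0.34, SE 0.10, edgeR adjusted p = 0.0314). MRPL47 (chr3:179588285-179604649), the protein uL29 near the tunnel exit and the only MRPL gene to fall, was at 79.1, 76.3 and 77.3 CPM against 59.2, 67.8 and 65.2 CPM (log2 fold change -0.28, SE 0.08, edgeR adjusted p = 0.0293).

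In these 3 genes the groups did not overlap, but the calls were fragile. Leaving out any of the 3 shCtrl libraries ended the call of each, with log2 fold changes of -0.41, -0.41 and -0.48 for MRPS18A, -0.34, -0.33 and -0.37 for MRPS10 and -0.26, -0.29 and -0.28 for MRPL47. Fewer genes passed as lower in those fits in general, at 14.4%, 14.3% and 14.7% of all genes tested against 19.8% in the main fit. Leaving out shAC007128.1 replicate 1 also ended the calls of MRPS10 (-0.30) and MRPL47 (-0.22), and leaving out replicate 2 that of MRPS10 (-0.28). The length correction (-0.29 for MRPS10, -0.21 for MRPL47) and the replicate block ended both as well. Other alternatives went the opposite way. With the GC correction all 3 kept their call, at -0.52 for MRPS10, -0.53 for MRPL47 and -0.37 for MRPS18A. With upper quartile scaling, which lowered the median of all genes, they also kept it, at -0.48, -0.42 and -0.57. No called member changed its sign in any of the 18 alternatives, and 18 of the 25 higher members kept their call in all of them.

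MRPS18A belongs to a family of 3 paralogs of bacterial S18, and the other two did not pass the test in the main edgeR fit. MRPS18B, the highest member per length, stood at 229, 234 and 222 CPM in shCtrl and at 255, 239 and 239 CPM in shAC007128.1 (log2 fold change 0.10, SE 0.06, edgeR adjusted p = 0.261). Its sign turned under upper quartile scaling (-0.04), but there the median of all genes was -0.16, still below MRPS18B. MRPS18C was at 23.2, 26.3 and 23.04 CPM against 22.4, 22.4 and 23.6 CPM (log2 fold change -0.08, SE 0.10, edgeR adjusted p = 0.533), with overlapping groups. With the GC correction MRPS18C passed as lower (-0.35), near the -0.37 of MRPS18A in that fit. It also passed with the replicate block and GC correction together (-0.35). The difference among the paralogs was not tested.

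Summed levels set the subunits side by side. The 49 MRPL genes summed to 2341, 2212 and 2222 CPM in shCtrl and to 2924, 2789 and 2505 CPM in shAC007128.1, a mean of 2258 ± 72.0 against 2739 ± 214 CPM (SD, n = 3). The 29 MRPS genes summed to 1910, 1859 and 1800 CPM against 2210, 2077 and 1956 CPM, a mean of 1856 ± 54.8 against 2081 ± 127 CPM (SD, n = 3). With TMM scaling the groups overlapped in neither subunit, and replicate 3 was the lowest shAC007128.1 library in both. The sum was 21.3% higher for MRPL and 12.1% higher for MRPS, or 26.5% and 15.5% with replicates 1 and 2 alone. Relative to library totals without the TMM factor, a scaling added after seeing the data, the sums were 15.3% and 6.55% higher. The MRPS groups then overlapped, with 1931, 1902 and 1875 CPM in shCtrl and 2146, 2046 and 1890 CPM in shAC007128.1, whereas the MRPL groups did not.

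The ratio of the MRPL to the MRPS sum does not depend on how libraries are scaled. It was 1.23, 1.19 and 1.23 in shCtrl and 1.32, 1.34 and 1.28 in shAC007128.1, with no overlap. Counting MRPS18A and MRPS30 with the large subunit, where structures place them, and leaving out MRPS36, which belongs to a dehydrogenase complex, gave 1.39, 1.349 and 1.39 against 1.47, 1.51 and 1.45, again with no overlap. With each gene divided by the length of its canonical transcript the groups overlapped, at 1.46, 1.43 and 1.503 against 1.55, 1.56 and 1.44. No test was made of a score over the members, and the median log2 fold changes were 0.30 (MRPL, quartiles 0.01 to 0.58) and 0.23 (MRPS, quartiles -0.04 to 0.37), a difference that was not tested. Their order turned without shAC007128.1 replicate 1 (0.222 and 0.245) and without shCtrl replicate 2 (0.223 and 0.225).

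**Figure D4:**
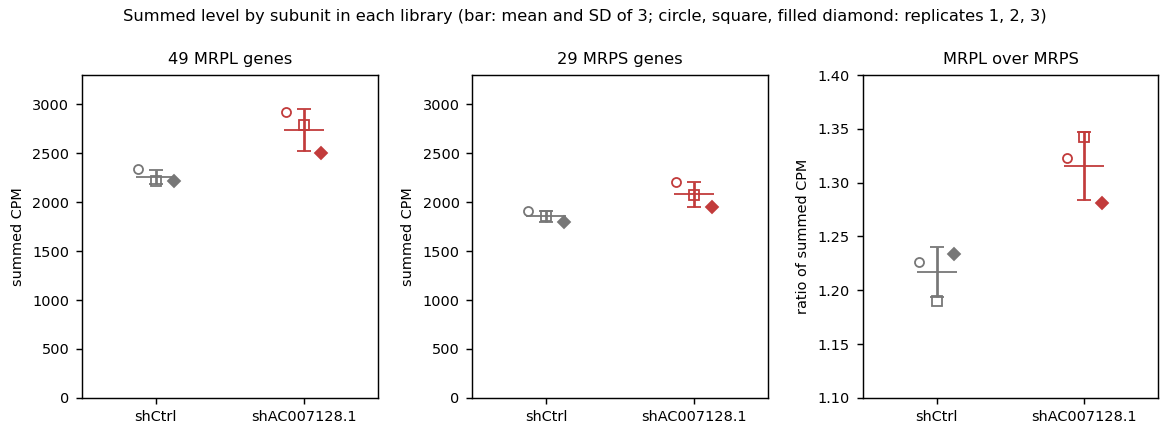
Summed CPM of the 49 MRPL genes, of the 29 MRPS genes and the ratio of both in each of the 6 libraries, with mean and SD of 3 as bars. The ratio axis starts at 1.1, and the ratio lies between 1.19 and 1.23 in shCtrl and between 1.28 and 1.34 in shAC007128.1.

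The groups that follow are to be read against the 27.3% higher and 20.9% lower among protein-coding genes tested. Grouped by structure, the 51 large subunit genes held 18 higher (35.3%) and 2 lower (median 0.30) and the 26 small subunit genes 7 higher (26.9%, near that background) and 2 lower (median 0.24). Grouped by origin, the 48 members with a bacterial homologue held 17 higher (35.4%) and all 4 lower ones (8.33%, median 0.31). In the main edgeR fit the 29 members found only in mitochondria held 8 higher (27.6%) and 0 lower (median 0.22). Of these 29, 1 was below 0 at an unadjusted p under 0.05 in edgeR and 0 were called lower by 2-fold. Other fits did call some of them lower, MRPL54 with DESeq2 and MRPS33 with the GC correction among them. MRPS36 was placed in neither group by origin. The 37 members that share no exon base with another annotated gene held 11 higher (29.7%) and 2 lower (median 0.13), and the 41 that do held 14 higher (34.1%) and 2 lower (median 0.36).

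Levels per kilobase of the canonical transcript spanned 34.0-fold in shCtrl, from 4.81 CPM per kb (MRPL42) to 163.5 CPM per kb (MRPS18B), with a median of 31.4. The highest MRPL genes were MRPL12 (132.8), MRPL21 (114) and MRPL41 (104) in shCtrl, and by the mean over all samples, on which the genes were chosen, MRPL12, MRPL41 and MRPL20 led. The highest MRPS genes were MRPS18B, MRPS24 (118) and MRPS34 (115). At the lower end, MRPL53 (7.30), of whose exon bases 99.4% are shared with other genes, MRPS33 (5.32) and MRPS11 (6.88) were found beside MRPL42. None of these 4 low genes passed the test, nor did MRPL41 (0.31, edgeR adjusted p = 0.213) or MRPS34 (0.15, edgeR adjusted p = 0.513), whereas MRPL20 rose (log2 fold change 0.42, SE 0.10, edgeR adjusted p = 0.016). MRPL41 and MRPS34 passed as higher without replicate 3 and with the GC correction. MRPS33 passed as lower with the GC correction (-0.33), and MRPL42 with the replicate block and GC correction together (-0.34). The MRPL20 call was lost without shCtrl replicate 1 (0.40) or 2 (0.40) and with upper quartile scaling (0.27).

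In some members that were not called, a single library lay far from the others of its group. MRPL51 stood at 71.1, 73.05 and 69.4 CPM in shCtrl and at 143, 121 and 60.04 CPM in shAC007128.1, so that replicate 3 lay below every shCtrl library while the other two lay far above (log2 fold change 0.60, SE 0.28, edgeR adjusted p = 0.129). In MRPS14 replicate 3 was the high one, with 14.1, 17.3 and 17.5 CPM against 21.8, 19.8 and 33.8 CPM (0.63, SE 0.21, edgeR adjusted p = 0.052), and the gene did not pass without that library either (0.34, edgeR adjusted p = 0.0845). MRPS14 passed as higher with DESeq2, with the replicate block and without shAC007128.1 replicate 2. In MRPS2 it was shCtrl that was split, with 98.0 CPM in replicate 1 and 58.5 and 56.4 CPM in the others, against 99.7, 97.3 and 92.3 CPM (0.44, SE 0.21, edgeR adjusted p = 0.132). MRPL10 had the same form, at 61.4, 31.4 and 35.4 CPM against 59.3, 53.6 and 46.4 CPM. Both passed as higher without shCtrl replicate 1. MRPL51, MRPS14, MRPS2 and MRPL10 were chosen for this paragraph after their values were seen.

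The members lie on 21 chromosomes, and 17 of the 78 (21.8%) start within 1000 bases of the start of another protein-coding gene on the opposite strand, against 11.2% of the protein-coding genes tested. Partners did not always get the same call. MRPL46 and MRPS11 start 63 bases apart, and MRPL46 rose (0.77, SE 0.14) while MRPS11, also above 0, was not called (0.35, SE 0.28, edgeR adjusted p = 0.362). The MRPS11 value lay between 0.15 and 0.57 when a library was left out. MRPL47, which fell, starts 41 bases from NDUFB5, a subunit of respiratory complex I that rose (0.34, SE 0.08, edgeR adjusted p = 0.0103). MRPL57 (0.06, edgeR adjusted p = 0.658) starts 106 bases from SKA3, a kinetochore gene that rose (1.67, SE 0.15, edgeR adjusted p = 0.000216). Some other pairs shared a sign, such as MRPL18 with TCP1 (0.22 and 0.76), MRPS12 with SARS2 (0.33 and 0.61) and MRPL54 with APBA3 (-0.47 and -0.23). Others had opposite signs, such as MRPL21 with IGHMBP2 (-0.21 and 0.73). No difference within a pair was tested.

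Promoters of the members, 250 bases before to 50 bases after the RefSeq start on GRCh38.p14, were searched on both strands for 5 short motifs. RefSeq entries matched 69 of the 78 members, and MRPL10, MRPL13, MRPL15, MRPL2, MRPL21, MRPL23, MRPL35, MRPS28 and MRPS36 were without one. CCGGAAG, a form of the letters of ETS family factors such as GABPA, stood in 29 of 69 member promoters (42%). It stood in 10.7% of all 27305 promoters of the same length and in 18.6% of the 10833 that belong to protein-coding genes tested. Shorter or other forms of ETS sites were not searched, and the ETS letters below mean this run only. AAGATGGC, the letters of YY1, stood in 20 (29%) against 3.03% of all promoters and 5.1% of those of protein-coding genes tested. GCATGCGC, those of NRF1, stood in 6 (8.70%) against 3.27% and 5.32%. The E-box CACGTG stood in 6 (8.70%), above the 7.43% of all promoters and below the 9.87% of tested genes, and CCAAT in 20 (29%) against 35.7% and 36.5%. No searched motif contains another.

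The ETS letters were unevenly spread over the members' changes. In the main edgeR fit they stood in all 4 falling members, in 4 of the 20 rising members with a promoter (MRPL3, MRPL16, MRPL20 and MRPS23) and in 21 of the 45 not called. The set of falling members depended on the fit. For example, MRPL36, without the letters, passed as lower in 8 of 18 alternatives. With the letters, MRPL33 did so in 6, MRPS16 in 5 and MRPL54 in 3. The median log2 fold change was 0.03 for the 29 members with the letters and 0.36 for the 40 without, and this difference of 0.33 stayed between 0.22 and 0.35 in 18 alternatives. Over all protein-coding genes tested with a promoter, the medians were -0.0037 with the letters and 0.06 without, 25.1% and 28.8% of genes were higher, and 22.6% and 20.5% were lower. Median GC content was 49.5% and 48.2% in the member groups, and the median shCtrl level 42.7 and 51.4 CPM. CCAAT stood in 3 of the 4 falling members, in 7 of the 20 rising ones and in 10 of the 45 not called. Over all protein-coding genes tested with CCAAT in the promoter, 31.6% were higher and 19.4% lower. For YY1 letters, 8 of the 20 members with them rose and 3 fell, and their median was 0.31 against 0.22 without. They too stood in 3 of the 4 falling members. Over all protein-coding genes tested with a promoter, 38.3% of those with the YY1 letters were higher against 27.6% of those without, and 14.8% against 21.2% were lower, with medians of 0.21 and 0.04, so that the members' 8 and 3 of 20 lie near the shares of all genes with these letters. The motifs were searched with the members' changes known, a match is a run of letters and not a bound site, and none of these splits was tested.

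The 60 bases before the RefSeq start are shown for the 4 falling members, and after them for the 4 rising members with the largest fold change whose window holds no annotated exon base, to show where the letters stand. They run 5′ to 3′ on the strand of the gene on GRCh38.p14, with the ETS letters in capitals, and none of the 8 windows holds the YY1 or NRF1 letters.
MRPS21 (chr1:150293801-150293860, plus strand): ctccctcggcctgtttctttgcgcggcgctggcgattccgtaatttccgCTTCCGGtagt
MRPS18A (chr6:43687792-43687851, minus strand): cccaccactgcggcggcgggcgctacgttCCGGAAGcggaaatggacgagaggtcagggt
MRPS10 (chr6:42217862-42217921, minus strand): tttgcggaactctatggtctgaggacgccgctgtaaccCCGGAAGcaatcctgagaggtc
MRPL47 (chr3:179604639-179604698, minus strand): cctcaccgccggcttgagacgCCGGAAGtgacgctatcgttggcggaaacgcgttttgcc
MRPL37 (chr1:54200107-54200166, plus strand): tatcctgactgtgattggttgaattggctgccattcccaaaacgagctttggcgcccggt
MRPL11 (chr11:66438849-66438908, minus strand): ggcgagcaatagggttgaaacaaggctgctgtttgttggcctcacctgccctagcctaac
MRPL44 (chr2:223957403-223957462, plus strand): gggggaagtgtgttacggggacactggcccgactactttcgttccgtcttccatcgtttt
MRPS15 (chr1:36464385-36464444, minus strand): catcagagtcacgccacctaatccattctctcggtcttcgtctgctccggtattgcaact

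In the falling members the letters begin 11 (MRPS21), 31 (MRPS18A), 22 (MRPS10) and 39 (MRPL47) bases before the start, in the direction CTTCCGG in MRPS21 and CCGGAAG in the other 3. In the rising members MRPL37, MRPL11, MRPL44 and MRPS15 this exact run is not in these windows nor elsewhere in the 300 bases searched. Other forms of ETS sites may be present in them. Of the MRPL47 window, 20 bases are annotated as exon in GENCODE. Outside the windows shown, the YY1 letters begin 9 bases after the start in MRPS18A and MRPS10 and 92 bases before it in MRPL47.

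**Figure D5:**
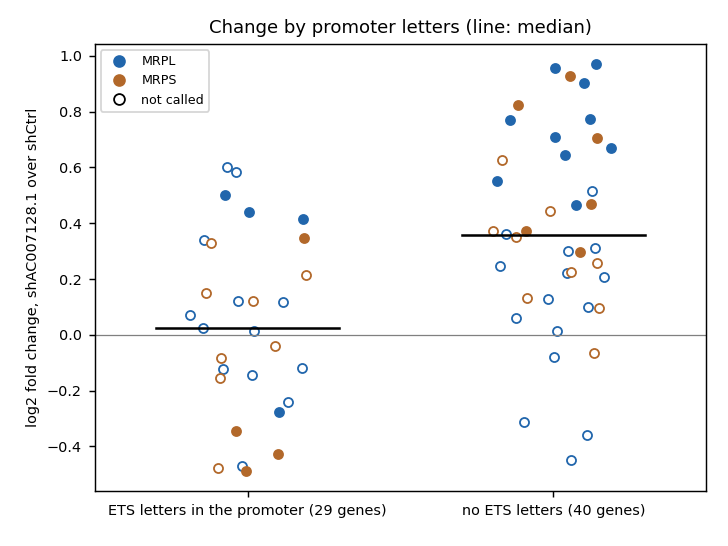
Log2 fold change of shAC007128.1 over shCtrl for the 29 members with and the 40 without the ETS letters in the promoter, MRPL in blue, MRPS in brown, open points not called, with sideways scatter only for display. Lines mark the medians of 0.03 and 0.36, and the 4 members that fell are all on the left.

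Genes of regulators of nuclear genes for mitochondria were measured as well, among them YY1, NRF1 and GABPA, whose letters were searched. YY1, which drives many nuclear genes for mitochondria, stood at 155, 158 and 157 CPM in shCtrl and at 227, 227 and 262 CPM in shAC007128.1, with no overlap (log2 fold change 0.61, SE 0.08, edgeR adjusted p = 0.000856). NRF1 rose as well (0.38, SE 0.12, edgeR adjusted p = 0.0397), as did the coactivator gene PPARGC1B (0.53, SE 0.09, edgeR adjusted p = 0.00272). GABPA did not pass (0.14, SE 0.14, edgeR adjusted p = 0.466). MYC did not pass either (0.27, SE 0.34, edgeR adjusted p = 0.571). Of 9 regulators listed, 8 were tested. Of these, 3 rose (37.5%, against 27.3% of protein-coding genes tested) and 0 fell (against 20.9%).

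The same ribosome holds proteins that carry other names. Of DAP3, AURKAIP1, CHCHD1, PTCD3 and GADD45GIP1, 3 rose and 0 fell (median 0.50), namely GADD45GIP1 (0.67), PTCD3 (0.50) and CHCHD1 (0.53), while DAP3 stood at -0.09 (edgeR adjusted p = 0.314) and AURKAIP1 at 0.41 (edgeR adjusted p = 0.237). The 27 assembly factors of the mitochondrial ribosome held 8 higher (29.6%) and 4 lower (14.8%, median 0.08), shares near the background of protein-coding genes. Among them RCC1L (0.84) and the rRNA methyltransferase gene MRM3 (1.01) rose, and NGRN (-0.39) fell. Of 16 translation factors, 1 rose (6.25%) and 4 fell (25%, median -0.05), among the latter the inner membrane insertase gene OXA1L (-0.39), the initiation factor gene MTIF2 (-0.38) and the release factor gene MTRF1L (-0.39). Of 10 genes for mitochondrial transcription and DNA maintenance, 2 rose and 2 fell (20% each, near the background, median -0.0095), with TEFM (0.72) and POLG (0.47) higher and POLG2 (-0.58) lower.

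For comparison, the 84 cytosolic ribosomal protein genes tested held 7 higher (8.33%) and 19 lower (22.6%, near the 20.9% of protein-coding genes), with a median of -0.09. That median was 0.063 below that of all genes, but lay above it with the length correction (by 0.016), with no filter (by 0.021) and without shAC007128.1 replicate 3 (by 0.0012). The 78 nuclear genes tested for respiratory chain and ATP synthase subunits held 39 higher (50%) and 5 lower (6.41%, median 0.34), and the 13 protein genes of the mitochondrial genome 6 higher and 0 lower (median 0.17, with 0 below 0 at an unadjusted p under 0.05 in edgeR). The signs of these medians and that of the members (0.11 to 0.33) were the same in all 18 alternatives, and the difference between the lists was not tested.

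Reads from pseudogenes were few. Of 79 pseudogenes with an MRPL or MRPS symbol in the table, 2 passed the filter, MRPS31P5 and MRPS31P4, with mean levels of 4.12 and 2.08 CPM, and all 79 together summed to 8.89 CPM in shCtrl and 4.87 CPM in shAC007128.1. MRPS31 itself had a log2 fold change of 0.12 (SE 0.11, edgeR adjusted p = 0.426), and how reads were divided between it and its copies is not given in the sources used here.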

How the data were processed

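RNA sequencing of 6 KYSE150 libraries was analysed, 3 shCtrl and 3 shAC007128.1, grouped by the labels. Per the study, reads of rRNA, with adapters or of low quality were dropped before mapping by TopHat2 to hg38 (version 2.0.6 in the submitters' processing notes, which also list CASAVA 1.8 and a mouse build beside GRCh38), and the authors deposited a table of estimated counts per Ensembl gene as whole numbers. The paper names another version of TopHat than these notes. The counting program, annotation release and strand setting are not given in the sources used here, so that reads of overlapping genes on either strand cannot be told apart. Low values gather at multiples of 4, and counts divided by 4 were tried as an alternative.

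Of 67140 identifiers, 60357 (89.9%) were found in GENCODE 44. Genes passing filterByExpr (19254) were tested with edgeR 4.0.16 (glmQLFit and glmQLFTest, TMM, R 4.3.3), with Benjamini-Hochberg adjustment over all of them, in place of the Cuffdiff test of the study, which needs reads. The standard error was the log2 fold change over the root of F, and the script was tested on simulated data. Calls used a limit of 0.05 on the adjusted p, alone and together with a fold change of at least 2. Totals of 55764405 to 78610457 counts set the precision, and a floor of 3 counts covers counting error only.

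Members and lists were chosen with earlier results of these data known. Named with values were, in each subunit by symbol, the 5 largest rises and falls among called members, the 3 highest and 2 lowest levels per kb, members called at 2-fold, MRPS18A, MRPS18B, MRPS18C, MRPS30, MRPL12 and MRPL58, and the 3 smallest p-values of each list. The comparison with cytosolic ribosomal, respiratory chain and mitochondrial genome genes, and the motif search, were added later. Alternatives were DESeq2 1.42.0, limma 3.58.1 (voom), other scalings and filters, corrections for GC content and length, a replicate block, leaving out each library, a fold limit of 1.5 and subunits by structure. Promoter sequences were taken from RefSeq (GRCh38.p14) and gene positions from GENCODE.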

Additional observations from a re-analysis of the deposited data

How the results depend on the processing

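Members higher numbered 21 to 31 in 12 alternatives and 21 to 38 when a library was left out, with 38 without shAC007128.1 replicate 3. With the GC correction 27 were higher, 20 of the 25 and 7 others. Members lower numbered 4, but 5 with DESeq2 size factors in edgeR, 6 with at least 10 counts in every sample, counts divided by 4 or library size only, 7 with DESeq2, 8 with the GC correction, 8 with the replicate block and GC correction together, 10 with upper quartile scaling, 2 with the length correction and 1 to 5 when a library was left out. Members higher by 2-fold numbered 2, but 1 with DESeq2, its size factors in edgeR, limma-voom, at least 10 counts in every sample, counts divided by 4 or the replicate block, 0 with library size only, no filter or upper quartile scaling, 4 with the length correction, 15 at a fold limit of 1.5 and 0 to 4 when a library was left out. Members lower by 2-fold numbered 0 throughout. Upper quartile scaling moved the median of all genes from -0.02 to -0.16, and the medians to 0.16 (MRPL) and 0.089 (MRPS), which is 0.32 and 0.25 above it. The MRPS median was 0.11 over members sharing no exon base, an alternative chosen after seeing the data.

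Of 49 members not called, 21 changed sign in at least 1 alternative, and of those called 0 did. The 21 include members such as MRPL2 and MRPS18B that turned only with upper quartile scaling. As that scaling lowered the median of all genes to -0.16, such turns do not show a change relative to other genes. Among these 21, for example, the sign turned for MRPL58 (0.03) with at least 10 counts (-0.0085), library size only (-0.049), no filter (-0.016) and upper quartile scaling (-0.12), with -0.055 to 0.12 when a library was left out. It turned for MRPS18B with upper quartile scaling (-0.044), for MRPL42 without shAC007128.1 replicate 2 (from -0.27 to 0.070 over libraries left out) and for MRPL53 without shAC007128.1 replicate 3 (from -0.69 to 0.26). Without that library it also turned for MRPL34 (from 0.25 to -0.12), and MRPS31 (0.12) turned with upper quartile scaling (-0.017) and with the GC correction (-0.085), and MRPL57 (0.06) with library size only (-0.012) and upper quartile scaling (-0.080). The causes were not tested.

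Whether libraries with the same replicate number form pairs is not given in the sources used here. Deviations of same-numbered libraries correlated at 0.031, -0.025 and -0.030, so no shared deviation was seen. This cannot exclude that they were handled together. With the replicate block, 26 members were higher and 3 lower. Of the 25 and 4 called without it, 24 and 2 remained, and MRPL47 (-0.28) and MRPS10 (-0.35) missed the threshold. With 3 libraries a group, the spread of shAC007128.1 limits what can be called, and every member was counted above the floor in every library.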

Other observations

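Many members share exon bases, and the share over all genes tested is not given here. Of 78, 41 share exon bases with another annotated gene and 29 share over 10% of them. MRPL53 shares 99.4% and MRPL12 69.5%, so that their counts may hold reads of the neighbours.

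Control libraries also disagreed in places. MRPL17, not called (log2 fold change -0.36, SE 0.36, edgeR adjusted p = 0.469), stood at 101.8, 65.8 and 70.1 CPM in shCtrl and at 53.6, 97.3 and 34.5 CPM in shAC007128.1, a spread in both groups wider than the difference between them. MRPL34 stood at 21.3, 16.2 and 23.9 CPM against 23.7, 14.2 and 34.9 CPM, with replicate 2 the lowest in both groups. Among the members, 5 (6.41%) had a coefficient of variation over 20% in shCtrl and 23 (29.5%) in shAC007128.1. Of all genes tested with a mean of at least 10 CPM, 8.11% and 16.1% did.

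Members that missed the threshold on the falling side with an adjusted p under 0.1 were MRPL33 (-0.24, edgeR adjusted p = 0.0761), MRPS16 (-0.48, edgeR adjusted p = 0.0874), MRPL54 (-0.47, edgeR adjusted p = 0.092) and MRPL36 (-0.45, edgeR adjusted p = 0.0555). Of 18 alternatives, MRPL36 passed as lower in 8, MRPL33 in 6, MRPS16 in 5 and MRPL54 in 3. They were chosen after their values were seen.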
